A study of Mus musculus with 10 samples.

Results

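The genes described here encode the aminoacyl-tRNA synthetases of the mouse, the enzymes that join each amino acid to its transfer RNA. They were chosen by symbol from a list of 36 genes, 20 for enzymes of the cytosol and 16 for enzymes of the mitochondrion, whose symbols end in 2. Of the 26335 rows of the deposited table, 35 carried one of these symbols, covering all 20 cytosolic genes and 15 of the 16 mitochondrial genes. Mars2, for the mitochondrial methionyl enzyme, was not analysed here. The list is not a complete census of mitochondrial synthetase genes.

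RNA came from a cultured mSCLC line, derived from a primary tumor of a mouse with small cell lung cancer. Cells were treated for 48 h with 250 μM stiripentol, an antiseizure drug that the study examined as an inhibitor of the respiratory chain, or with DMSO as control, and each group held 5 libraries. All libraries came from this single line, and the records do not say whether each came from a separate culture, so that every p-value below measures only the spread between these libraries. RNA was extracted in bulk, so fewer cells that express a gene and less of its RNA per cell cannot be told apart.

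A synthetase reads both its amino acid and its transfer RNA, and the charged transfer RNA then delivers the amino acid to the ribosome. Cytosolic enzymes serve the translation of nuclear transcripts, whereas the mitochondrial enzymes are encoded in the nucleus, imported, and serve the ribosomes that translate the few mitochondrial messages for respiratory chain subunits. Transcription of many cytosolic synthetase genes is known to be raised by ATF4, the transcription factor of the amino acid and integrated stress response.

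Depth ranged from 22375625 reads in control 5 to 65299372 reads in the deepest control library, and from 55015760 to 60670901 reads with stiripentol. In each group 2 clusters of libraries were seen. Controls 1 to 3 and stiripentol 3 to 5 formed the 3-library clusters, and controls 4 and 5 and stiripentol 1 and 2 formed the 2-library clusters. Across genes, libraries of the same group and cluster correlated at 0.983 to 0.997, and libraries of the same group but different clusters at 0.920 to 0.939. The clusters were found from the values, separately in each group, and what sets them apart is not given in the sources used here. Changes are therefore also given for 3 against 3 and 2 against 2 libraries. Clusters were matched between the groups by size alone, and whether matched clusters belong together was not tested. Among markers of the labelled tumor type, 7 of 10 neuroendocrine genes had a row and 2 of them, Ncam1 and Uchl1, passed the filter on low values. Of these 2, Ncam1 was called higher with stiripentol and Uchl1 was not called. The summed level of the neuroendocrine markers was 93.8 to 121 CPM (reads of a gene scaled to its library) in control and 127 to 157 CPM in stiripentol libraries. Epithelial markers (1 of 2 tested genes lower) summed to 2278 to 2598 CPM in control and 1544 to 2145 CPM with stiripentol. Mesenchymal markers (4 of 6 tested genes lower) summed to 2712 to 3893 CPM in control and 2502 to 4693 CPM with stiripentol. By the limma fit used below, 13.6% of all genes tested were called higher and 14.1% were called lower. The mesenchymal sums are mostly Vim, which had a log2 change of 0.28, while the lower genes of that list, named after their values were seen, were Col3a1 (log2 change -5.71), Col1a2 (-2.30), Pdgfrb (-1.49) and Pdgfra (-1.27). Leukocyte and endothelial markers, none of which passed the filter, summed to at most 0.140 and 1.18 CPM in any library. The part of these marker changes in the results below was not tested.

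With stiripentol, the cytosolic synthetase genes were mostly higher. Of the 20 genes, 14 were higher, 0 were lower and 6 were not called (limma, adjusted p under 0.05), where 13.6% of all 12306 genes tested were called higher and 14.1% were called lower. Limma voom called 14 higher and 0 lower, where 1762 and 1864 of all genes tested were. The exact Mann-Whitney test called 12 higher and 0 lower, where 1594 and 1759 of all genes tested were. With 5 against 5 libraries that test called only genes whose groups did not overlap, so the count without overlap below is the same result. The median log2 change of the cytosolic genes was 0.76, where that of all genes tested was -0.06. Changes ranged from -0.12 for Hars to 1.51 for Eprs and were above 0 for 19 of 20 genes. In 12 of the 20 genes every stiripentol library stood above every control library, which held for 13.0% of all genes tested. The genes not called were Dars, Farsa, Hars, Qars, Tars and Vars. The calls of Aars, Iars, Lars, Rars and Yars were each lost when certain single libraries were left out. The count of higher genes was lowest, at 10, without control 4, control 5, stiripentol 1 or stiripentol 2. Over all genes tested, 1706, 1611, 1379 and 1218 were then called higher, in that order. With 1 mean per group and cluster, an alternative chosen after seeing the data, 0 genes were called by limma. In that fit 9 of the 14 genes had an unadjusted p under 0.05, beside 1116 of all 12306 genes tested. All 14 changes stayed above 0, but the 14 genes were picked from these same libraries, so this is no separate support.

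**Figure D1:**
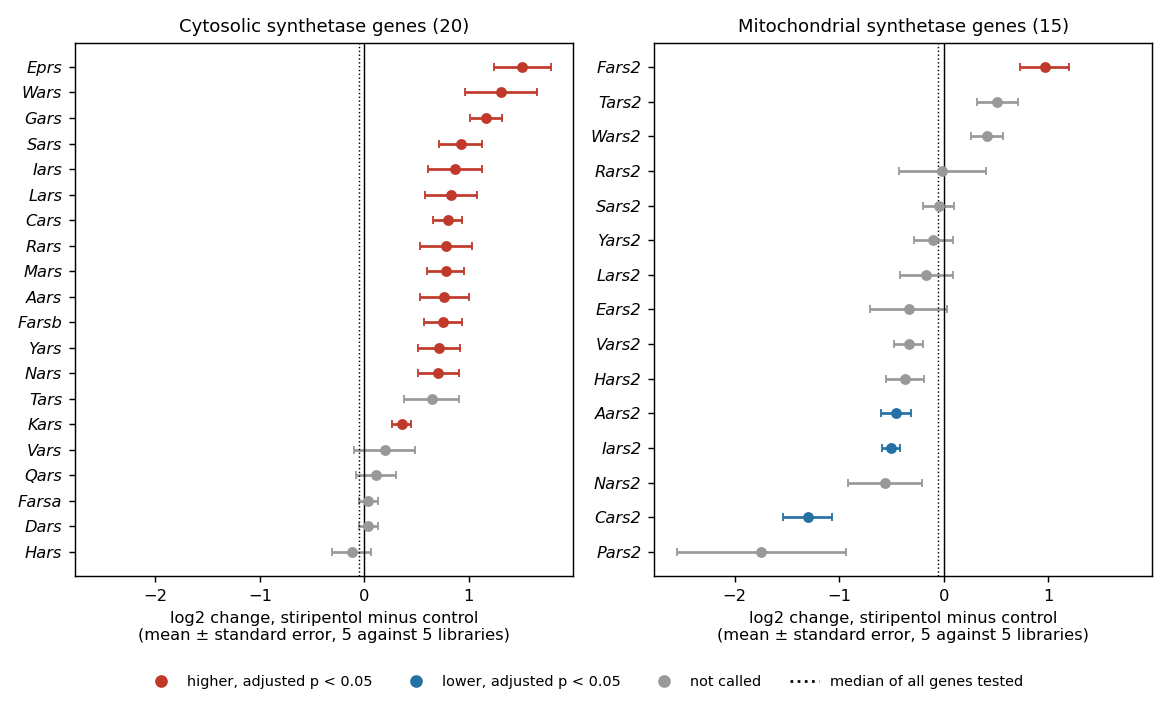
Log2 change with stiripentol (mean ± standard error, 5 against 5 libraries) for the 20 cytosolic and 15 mitochondrial synthetase genes, colored by the limma call, with the median change of all genes tested (-0.06) as a dotted line. On the left 14 genes are colored as higher and 0 as lower, and on the right 1 is colored as higher and 3 as lower.

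Promoters were searched for the C/EBP-ATF response element, the DNA sequence that ATF4 is known to bind with a C/EBP partner, written TGATGNAA or, on the other strand, TTNCATCA. RefSeq promoter sequences (GRCm38.p6, from 250 bases before to 50 bases after the annotated start) were found for 13 of the 20 cytosolic and 13 of the 15 mitochondrial genes. The element was present in a promoter of 5 of the 13 cytosolic genes, Aars, Gars, Iars, Tars and Yars, and of 0 of the 13 mitochondrial genes. Of all 32851 promoter entries 3.97% held it. That share counts single entries, whereas a gene was counted if any of its entries matched, so the measures are not alike. Of these 5 genes, 4 were called higher, as were 9 of all 13 cytosolic genes with a promoter sequence. A match is a description of these letters and says nothing of binding in these cells. Matches are shown because they lie close to the start of transcription of genes that were called higher, or, for Tars, of a gene that was not. They are written on the strand of the gene from 5′ to 3′ with the element in capitals, each with 10 flanking bases in lower case.
Aars, bases 10 to 17 from the start: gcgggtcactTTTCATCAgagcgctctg
Gars, bases -30 to -23: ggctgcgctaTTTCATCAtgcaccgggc
Iars, bases 8 to 15: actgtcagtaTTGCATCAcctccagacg
Tars, bases -15 to -8: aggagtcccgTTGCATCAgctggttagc
Yars, bases 4 to 11: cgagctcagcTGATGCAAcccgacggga
In GRCm38.p6 the Aars window is chr8:111033841-111033868 on the plus strand, that of Gars is chr6:55037961-55037988 on the plus strand, that of Iars is chr13:49682127-49682154 on the plus strand, that of Tars is chr15:11399656-11399683 on the minus strand, and that of Yars is chr4:129189896-129189923 on the plus strand. By the RefSeq start, the matches shown for Aars, Iars and Yars lie within the transcribed part.
The other motif searched in these promoters, on both strands, was that of NRF1, a regulator of nuclear genes for mitochondrial proteins. It was present in a promoter of 3 of the 13 cytosolic genes (Farsb, Kars and Tars) and of 1 of the 13 mitochondrial genes (Iars2). Of all promoter entries, again counted singly, 4.60% held it.

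Among the cytosolic enzymes, 8 are held together in the multi-synthetase complex, a large assembly built on 3 scaffold proteins. Of the 8 genes, 6 were higher and 2 were not called, with a median log2 change of 0.78, where 13.6% of all genes tested were called higher. The largest rise was that of Eprs, the bifunctional enzyme that charges both glutamate and proline. Its level was 8.73, 8.88, 8.88, 8.00 and 8.12 log2 CPM in controls 1 to 5 and 10.66, 10.54, 9.66, 9.66 and 9.65 log2 CPM in stiripentol libraries 1 to 5. Controls 4 and 5 were the lowest and stiripentol 1 and 2 the highest, and the groups did not overlap. The log2 change was 1.51 (SE 0.27, limma adjusted p = 0.00295), a 2.85-fold rise.

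The hydrophobic amino acid enzymes of the complex also rose. Lars, for leucine, stood at 7.99, 8.35, 7.81, 7.00 and 6.99 log2 CPM in controls 1 to 5 and between 8.40 and 8.49 in every stiripentol library, with a log2 change of 0.83 (SE 0.25, limma adjusted p = 0.0301). The control libraries were spread over a wide range with controls 4 and 5 at the bottom, whereas the stiripentol libraries were nearly equal, with an SD of 0.04 beside 0.61 in control (n = 5 each). Iars, for isoleucine, had 8.14, 8.42, 7.98, 7.12 and 7.14 log2 CPM in controls 1 to 5 and 8.94, 8.87, 8.46, 8.40 and 8.48 log2 CPM with stiripentol. Control 2 reached into the range of the stiripentol libraries, and the log2 change was 0.87 (SE 0.26, limma adjusted p = 0.0307). Mars, for methionine, whose enzyme charges the initiator transfer RNA as well, rose by 0.78 (SE 0.17, limma adjusted p = 0.0093). The exons of Mars share 68 bases with those of Ddit3 on the opposite strand, Ddit3 was higher by 1.95 on the log2 scale, and whether counting used strand is not given in the sources used here.

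Rars, for arginine, stood at 7.94, 8.11, 7.90, 7.08 and 7.02 log2 CPM in controls 1 to 5 and at 8.05, 7.98, 8.64, 8.63 and 8.65 log2 CPM in stiripentol libraries 1 to 5. Here the 2-library cluster was the lower in both groups, control 2 stood above stiripentol 1 and 2, and the log2 change was 0.78 (SE 0.25, limma adjusted p = 0.0401). Kars, for lysine, had a smaller log2 change of 0.36 (SE 0.09, limma adjusted p = 0.0155) with no overlap between groups. Its enzyme serves the cytosol and the mitochondrion from the same gene. The other members of the complex were not called. Dars, for aspartate, had a log2 change of 0.04 (SE 0.09, limma adjusted p = 0.79), and Qars, for glutamine, one of 0.11 (SE 0.19, limma adjusted p = 0.688). Qars stood at 7.55 and 7.51 log2 CPM in controls 4 and 5 and at 6.96 to 6.99 in controls 1 to 3, the opposite order to that of the other members of the complex.

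Of the 3 scaffold genes, Aimp1 was called higher, as were 13.6% of all genes tested. It lay between 6.56 and 6.67 log2 CPM in the control libraries and at 7.54, 7.38, 7.13, 7.11 and 7.01 log2 CPM in stiripentol libraries 1 to 5, with a log2 change of 0.63 (SE 0.11, limma adjusted p = 0.003). All stiripentol libraries stood above all control libraries. Aimp2 had a log2 change of -0.56 (SE 0.29, limma adjusted p = 0.171) and Eef1e1 one of 0.29 (SE 0.17, limma adjusted p = 0.221).

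The other 12 cytosolic genes encode enzymes, or chains of one, outside the complex. Of these, 8 were higher and 4 were not called, where 13.6% of all genes tested were called higher. The median log2 change was 0.74, beside 0.78 for the complex. Gars, the glycyl enzyme of both the cytosol and the mitochondrion, had 8.53, 8.75, 8.68, 8.25 and 8.24 log2 CPM in controls 1 to 5 and 9.99, 9.92, 9.47, 9.44 and 9.46 log2 CPM in stiripentol libraries 1 to 5. The nearest libraries of the groups, control 2 and stiripentol 4, were well apart, and the log2 change was 1.17 (SE 0.16, limma adjusted p = 0.000731), a 2.24-fold rise. Of the 20 cytosolic genes this change had the smallest p.

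Wars, the tryptophanyl enzyme, which interferon is known to induce, stood at 7.14, 7.58, 7.02, 5.80 and 5.74 log2 CPM in controls 1 to 5 and at 7.65, 7.65, 8.17, 8.18 and 8.15 log2 CPM in stiripentol libraries 1 to 5. Controls 4 and 5 were far below controls 1 to 3, and control 2 came close to stiripentol 1 and 2 without reaching them. The log2 change was 1.31 (SE 0.35, limma adjusted p = 0.0194), a 2.47-fold rise. Sars, the seryl enzyme, had its spread in the other group. It stood at 8.81, 9.08, 9.09, 9.03 and 8.91 log2 CPM in controls 1 to 5 and at 10.46, 10.40, 9.58, 9.60 and 9.50 log2 CPM with stiripentol, so that the control clusters were alike and stiripentol 1 and 2 stood above stiripentol 3 to 5. Its log2 change was 0.92 (SE 0.20, limma adjusted p = 0.0087).

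Cars, for cysteine, had 6.90, 7.25, 7.01, 6.61 and 6.51 log2 CPM in controls 1 to 5 and 7.58 to 7.70 log2 CPM in the stiripentol libraries, a log2 change of 0.80 (SE 0.14, limma adjusted p = 0.00261) with no overlap. Aars, for alanine, rose by 0.76 (SE 0.23, limma adjusted p = 0.0343), Nars, for asparagine, by 0.71 (SE 0.20, limma adjusted p = 0.0243) and Yars, for tyrosine, by 0.72 (SE 0.20, limma adjusted p = 0.0241), each without overlap between groups. The stiripentol SD was 0.07 for Aars and 0.03 for Nars, beside 0.58 and 0.48 in control (n = 5 each). Exons of Aars share 1326 bases with those of Exosc6 on the same strand, so that reads there cannot be told apart. The phenylalanyl enzyme is built of 2 kinds of chain. Farsb, the beta chain, rose by 0.75 (SE 0.18, limma adjusted p = 0.0125), whereas Farsa, the alpha chain, had a log2 change of 0.04 (SE 0.09, limma adjusted p = 0.778). On the opposite strand, exons of Farsb share 248 bases with those of Sgpp2, and exons of Yars share 30 with those of C77080.

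Of the free enzymes not called, Tars and Vars had the widest spread in control. Tars, for threonine, whose promoter holds the element shown above, stood at 8.26, 8.57, 7.95, 7.30 and 7.19 log2 CPM in controls 1 to 5 and at 8.85, 8.77, 8.30, 8.27 and 8.30 log2 CPM with stiripentol. Stiripentol 3 to 5 fell within the range of controls 1 to 3, and the log2 change was 0.64 (SE 0.27, limma adjusted p = 0.0927). Vars, for valine, stood at 9.15, 9.13, 9.01, 7.75 and 7.78 log2 CPM in controls 1 to 5 and at 8.81, 8.82, 8.72, 8.74 and 8.69 log2 CPM with stiripentol. All stiripentol libraries lay between the control clusters, and the log2 change was 0.19 (SE 0.29, limma adjusted p = 0.636). Hars, for histidine, was the only cytosolic gene with a negative estimate, -0.12 (SE 0.19, limma adjusted p = 0.64, unadjusted p = 0.528).

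By the fold of the catalytic domain, synthetases belong to class I or class II. Of the 9 class I cytosolic genes 7 were higher, with a median log2 change of 0.78, and of the 10 class II genes 6 were higher, with a median of 0.68. Eprs, which joins an enzyme of each class, was left out of this count. Both classes are parts of the 20 cytosolic genes above, and 13.6% of all genes tested were called higher.

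**Figure D2:**
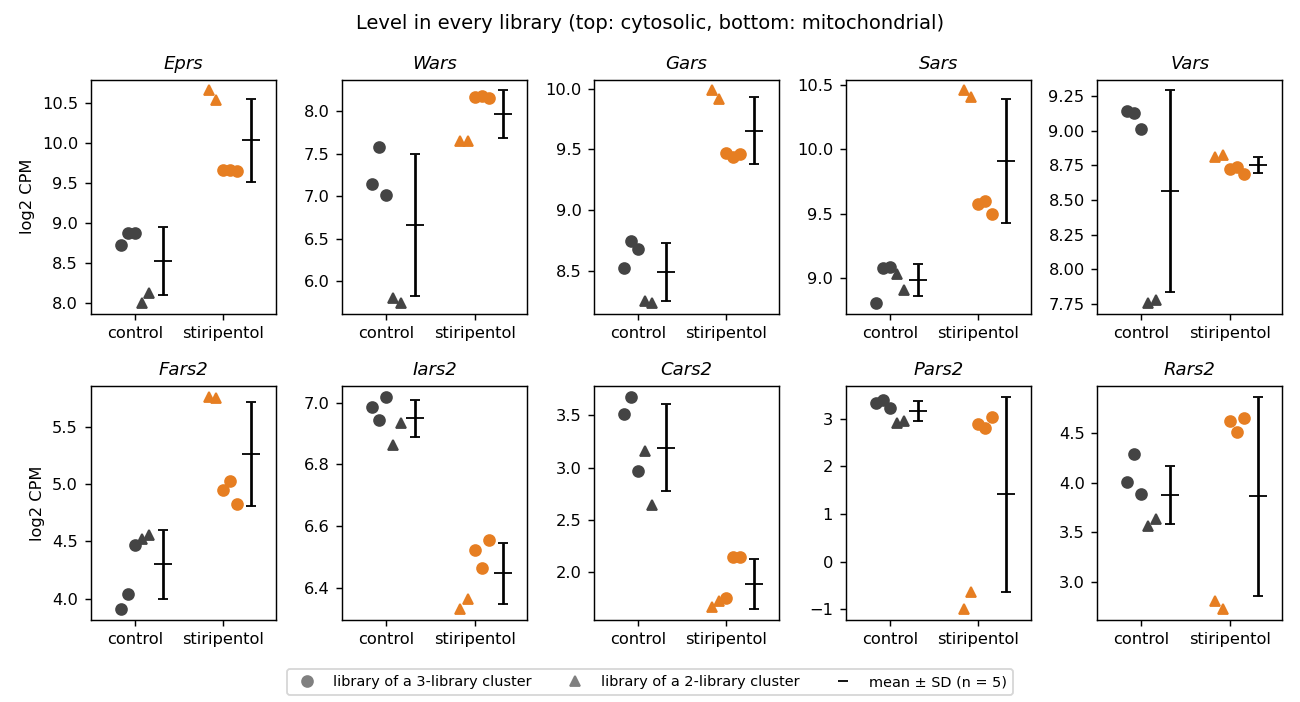
Level (log2 CPM) of 5 cytosolic and 5 mitochondrial synthetase genes in each library, with the mean ± SD of each group (n = 5). Each panel has its own axis. Circles mark the 3-library clusters and triangles the 2-library clusters. In Eprs, Wars, Gars, Sars and Fars2 every stiripentol library lies above every control library, in Iars2 and Cars2 every stiripentol library lies below, and in Pars2 and Rars2 the triangles with stiripentol stand apart.

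The mitochondrial synthetase genes were mostly not called. Of the 15 genes, 1 was higher (Fars2), 3 were lower (Aars2, Cars2 and Iars2) and 11 were not called, beside a background of 13.6% higher and 14.1% lower over all genes tested, so that these counts were near the background. The median log2 change was -0.34, and 12 of the 15 estimates were below 0, of which those of Rars2, Sars2 and Yars2 turned positive with quantile normalization and those of Rars2 and Sars2 also with median centring and TMM scaling. Changes ranged from -1.75 for Pars2 to 0.97 for Fars2. In 5 genes, Aars2, Cars2, Hars2, Iars2 and Vars2, every stiripentol library stood below every control library, and in 1, Fars2, every one stood above, where 14.3% and 13.0% of all genes tested did so.

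Cars2, for cysteine, fell the most among the called mitochondrial genes. It stood at 3.51, 3.68, 2.96, 3.16 and 2.64 log2 CPM in controls 1 to 5 and at 1.66, 1.72, 1.76, 2.15 and 2.15 log2 CPM in stiripentol libraries 1 to 5. These levels rest on 741, 741, 495, 565 and 139 reads in the control libraries and on 189 to 263 reads in the stiripentol libraries. The groups did not overlap, control 5 was the lowest control, and the log2 change was -1.30 (SE 0.23, limma adjusted p = 0.00297), so that the level was 2.47-fold lower.

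Iars2, for isoleucine, had the smallest SD of the called mitochondrial genes in both groups. Control libraries lay between 6.86 and 7.02 log2 CPM and stiripentol libraries at 6.33, 6.36, 6.52, 6.46 and 6.56 log2 CPM, a log2 change of -0.50 (SE 0.09, limma adjusted p = 0.00251). The exons of Iars2 share 2034 bases with those of Rab3gap2 and 114 with those of an antisense gene, on the opposite strand. Aars2, for alanine, stood at 4.29 to 4.58 log2 CPM in control and at 4.17, 4.27, 3.83, 3.78 and 3.94 log2 CPM with stiripentol. Stiripentol 2 lay just under control 5, and the log2 change was -0.45 (SE 0.14, limma adjusted p = 0.0372). With TMM scaling it was not called (limma adjusted p = 0.146), nor without any single library among controls 1 to 3 and stiripentol 3 to 5.

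Fars2, the phenylalanyl enzyme, which works as a single chain in the mitochondrion, was the only mitochondrial gene called higher. It stood at 3.91, 4.04, 4.47, 4.52 and 4.56 log2 CPM in controls 1 to 5 and at 5.77, 5.75, 4.95, 5.03 and 4.83 log2 CPM in stiripentol libraries 1 to 5. Stiripentol 1 and 2 stood highest, no library overlapped, and the log2 change was 0.97 (SE 0.23, limma adjusted p = 0.0128). The exons of Fars2 share 115 bases with those of Lyrm4 on the opposite strand. Tars2, for threonine, had a log2 change of 0.51 (SE 0.19, limma adjusted p = 0.0696), and Wars2, for tryptophan, one of 0.41 (SE 0.15, limma adjusted p = 0.0632). Neither was called, and Tars2 was called higher with each of the 3 other scalings, at limma adjusted p = 0.0236 with quantile normalization.

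Pars2, the prolyl enzyme, had the most uneven values. It stood at 3.33, 3.40, 3.22, 2.91 and 2.97 log2 CPM in controls 1 to 5 and at -1.003, -0.64, 2.89, 2.81 and 3.05 log2 CPM in stiripentol libraries 1 to 5. The reads were 654, 612, 592, 476 and 174 in the controls and 28, 35, 426, 417 and 453 with stiripentol, so that the drop to 28 and 35 reads was seen in stiripentol 1 and 2 while stiripentol 3 to 5 lay near or among the controls. The log2 change over all libraries was -1.75 (SE 0.81, limma adjusted p = 0.127). Rars2, for arginine, had a similar split. It stood at 4.01, 4.29, 3.89, 3.56 and 3.63 log2 CPM in the controls, at 2.81 and 2.73 in stiripentol 1 and 2, and at 4.62, 4.51 and 4.65 in stiripentol 3 to 5, giving a log2 change of -0.01 (SE 0.42, limma adjusted p = 0.984).

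Nars2, for asparagine, and Ears2, for glutamate, were low in the same libraries. Nars2 lay at 1.58 and 2.04 log2 CPM in stiripentol 1 and 2 and at 3.10 to 3.60 in the other 8 libraries, with a log2 change of -0.56 (SE 0.35, limma adjusted p = 0.248). Ears2 lay at 1.69 and 1.65 log2 CPM in stiripentol 1 and 2 and at 2.41 to 3.24 elsewhere, with a log2 change of -0.34 (SE 0.37, limma adjusted p = 0.508). In mitochondria the Ears2 enzyme also starts the indirect route to glutaminyl-tRNA, which is finished by an amidotransferase. The remaining genes were Hars2 (log2 change -0.37, SE 0.18), Vars2 (-0.34, SE 0.14), Lars2 (-0.17, SE 0.25), Yars2 (-0.10, SE 0.19) and Sars2 (-0.05, SE 0.15), for histidine, valine, leucine, tyrosine and serine, with limma adjusted p from 0.0902 to 0.832. On the opposite strand, Hars2 shares 195 exon bases with Hars, Ears2 shares 89 with Ubfd1, and Vars2 shares 296 with an antisense gene.

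Changes of the cytosolic and the mitochondrial gene for the same amino acid were set side by side in 16 pairs, in which Eprs and Fars2 each stood in 2 pairs because Eprs charges 2 amino acids and Fars2 has 2 cytosolic counterparts. The log2 change of the cytosolic gene exceeded that of the mitochondrial gene in 14 of the 16 pairs, by a median of 0.93. The gap was widest for proline (Eprs with Pars2, 3.26) and cysteine (Cars with Cars2, 2.10), followed by glutamate (Eprs with Ears2, 1.85) and isoleucine (Iars with Iars2, 1.37). The proline and glutamate gaps were uneven between stiripentol libraries. The SD of the cytosolic minus mitochondrial level was 2.57 and 1.34 with stiripentol, beside 0.23 and 0.24 in control. Pars2 and Ears2 were low in stiripentol 1 and 2, and neither was called. For phenylalanine the order was reversed, with differences of -0.93 for Farsa and -0.21 for Farsb against Fars2. Threonine (0.13) and histidine (0.25) had the smallest positive gaps. These are differences of log2 changes and were not tested as pairs.

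**Figure D3:**
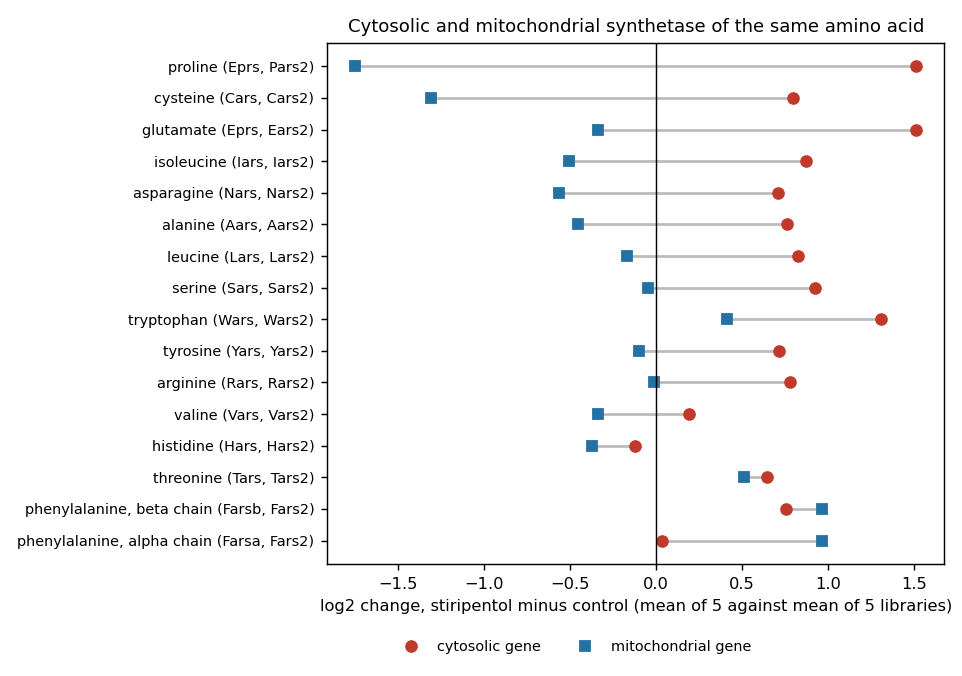
Log2 change with stiripentol of the cytosolic (circles) and the mitochondrial (squares) synthetase gene of each amino acid, with the 16 pairs ordered by their difference. The circle lies to the right of the square in 14 pairs, and the widest gap is that of Eprs and Pars2 (3.26). Pars2 had 28 and 35 reads in stiripentol 1 and 2 and was not called.

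Changes were next taken between the clusters of equal size in the 2 groups, where p-values measure the spread within a cluster. Because the clusters were found from these same values and matched by size alone, these p-values do not test a difference between clusters. In 3 against 3 libraries, 13 cytosolic genes were higher and 1, Vars, was lower, where 37.7% and 27.0% of all genes tested were called higher and lower, and the median log2 change was 0.34 beside 0.08 for all genes. In 2 against 2 libraries, 16 were higher and 0 were lower, where 25.7% and 46.5% of all genes tested were, and the median was 1.29 beside -0.25 for all genes. With the clusters fitted separately, the estimate was larger in 2 against 2 libraries for 19 of the 20 genes. This is a description without a test, since the clusters came from the same values.

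Eprs had log2 changes of 0.83 in 3 against 3 and 2.54 in 2 against 2 libraries. Gars had 0.80 and 1.71, Wars 0.92 and 1.88, and Sars 0.56 and 1.46. The widest contrast in direction was that of Vars, which was lower by the test in 3 against 3 libraries, at -0.38 (SE 0.06, limma adjusted p = 0.00116), and higher in 2 against 2 libraries, at 1.05 (SE 0.09, limma adjusted p = 2.24e-06). Tars had 0.03 in 3 against 3 and 1.57 in 2 against 2 libraries. Iars had 0.26 (limma adjusted p = 0.0623) in 3 against 3 and 1.78 in 2 against 2 libraries. Dars, Farsa, Hars and Qars were not called in either cluster.

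The control libraries themselves differed. A gene with 0 reads stood at -4.815 log2 CPM in controls 1 to 3. In controls 4 and 5 and in all stiripentol libraries it stood at -4.741 log2 CPM. The part of this difference in the values below was not tested. The mean of controls 1 to 3 was above that of controls 4 and 5 in 19 of the 20 cytosolic genes, and in 48.8% of all genes tested. The median difference of these means on the log2 scale was 0.75 for the 20 genes and -0.02 for all genes tested. The differences ran from -0.55 for Qars to 1.48 for Wars. Of the mitochondrial genes, 12 of 15 had a higher mean in controls 1 to 3, with a median difference of 0.23 over the 15 genes. These too are descriptions without a test.

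More of the mitochondrial genes, as of all genes tested, were called when the clusters were taken into account. With a term for the cluster in the fit of all 10 libraries, 3 were higher and 6 were lower, where 23.6% and 27.1% of all genes tested were, and of the cytosolic genes 14 were higher and 0 were lower. In 3 against 3 libraries 4 were higher and 6 lower, beside 37.7% and 27.0% of all genes tested, and the median log2 change was -0.15 beside 0.08 for all genes. In 2 against 2 libraries 4 were higher and 9 lower, beside 25.7% and 46.5% of all genes tested, and the median was -0.55 beside -0.25. Cars2, Hars2, Iars2 and Pars2 were called lower in both clusters, and Fars2, Tars2 and Wars2 were called higher in both. Log2 changes in 3 against 3 and 2 against 2 libraries were -1.37 and -1.21 for Cars2 and -0.19 and -0.64 for Hars2. They were -0.47 and -0.55 for Iars2, 0.80 and 1.22 for Fars2, 0.42 and 0.65 for Tars2, and 0.44 and 0.37 for Wars2. The fall of Aars2 was -0.69 in 3 against 3 and -0.11 in 2 against 2 libraries. Pars2 had -0.40 and -3.76. A pair of genes were called in opposite directions, Rars2 with 0.53 (limma adjusted p = 0.00417) and -0.83 (limma adjusted p = 0.000427), and Yars2 with -0.49 (limma adjusted p = 0.00174) and 0.49 (limma adjusted p = 0.00685). The difference between the clusters itself was not tested.

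**Figure D4:**
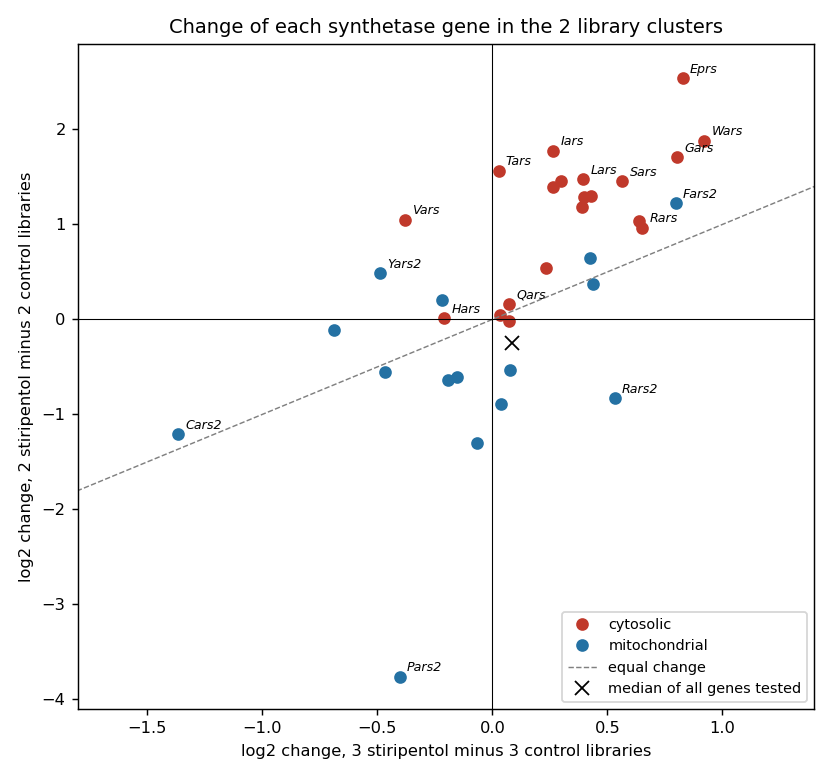
Log2 change of each synthetase gene in 3 against 3 libraries (horizontal) and in 2 against 2 libraries (vertical), with equal change as a dashed line and the median of all genes tested as a cross (0.08 and -0.25). Of the 20 cytosolic genes, 19 lie above the dashed line, and Pars2 lies lowest at -3.76 in 2 against 2 libraries.

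Genes that act beside the synthetases were mostly not called. Of 14 accessory genes of aminoacylation, 3 were higher and 0 were lower by limma, none of the lower estimates having an unadjusted p under 0.05. With 13.6% of all genes tested called higher and 14.1% lower, the count of 3 lies near the background. The median log2 change was 0.20. Qrsl1, a subunit of the amidotransferase that finishes mitochondrial glutaminyl-tRNA, rose by 0.73 (SE 0.13, limma adjusted p = 0.00355), Tarsl2, a threonyl synthetase-like gene, by 0.53 (SE 0.14, limma adjusted p = 0.0214), and Pstk, a kinase in the making of selenocysteinyl-tRNA, by 0.42 (SE 0.13, limma adjusted p = 0.0357).

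Of 16 genes of the ATF4 program, chosen with earlier results of these data known, 9 were higher and 1 was lower, beside 13.6% and 14.1% of all genes tested, with a median log2 change of 0.69. Slc3a2, the heavy chain of amino acid transporters, had 8.15 to 8.55 log2 CPM in control and 10.80 to 11.59 log2 CPM with stiripentol, a log2 change of 2.84 (SE 0.18, limma adjusted p = 1.67e-05). Asns, asparagine synthetase, rose by 1.59, Mthfd2, an enzyme of mitochondrial folate metabolism, by 1.49, and Atf4 itself by 1.08 (SE 0.15, limma adjusted p = 0.000819). Ddit3 (1.95), Nupr1 (1.30) and Trib3 (1.17), stress-induced regulators, were higher as well, and Atf5, a relative of Atf4, was lower by the test (-0.86, SE 0.24, limma adjusted p = 0.0237). Like 19 of the 20 cytosolic synthetase genes, all 16 had a higher mean in controls 1 to 3 than in controls 4 and 5, beside 48.8% of all genes tested. Single libraries overlapped in some of them, as in Ddit3, where control 1 (4.94 log2 CPM) lay below controls 4 and 5 (5.54 and 5.27). In 3 against 3 libraries 11 of the 16 were higher and 1 was lower, beside 37.7% and 27.0% of all genes tested. In 2 against 2 libraries 11 were higher and 3 were lower, beside 25.7% and 46.5%. For Asns the log2 change was 0.86 in 3 against 3 and 2.68 in 2 against 2 libraries, whereas for Ddit3 it was 1.91 and 2.00. Slc7a11, a gene of this list not called over all libraries, had 0.87 and -1.56.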

How the data were processed

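The authors deposited log2 CPM per gene for 5 control and 5 stiripentol libraries, with group means, p-values, q-values and fold changes of their own, which were not used. The study's methods name GENAVi for scaling to CPM, and the submitters' processing notes name the build mm10. The aligner, annotation and strand setting are not given in the sources used here. The methods name 3′ mRNA libraries (Lexogen QuantSeq), but TruSeq total RNA kits are named in the sample records. In the table, 14 rows carried a number in place of a symbol and were assigned to no gene.

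Whole reads were recovered from all values (tolerance 0.1 read), giving the depths in the text, which describe counting error only. Stiripentol was compared with control by limma 3.58.1 (R 4.3.3, lmFit and trended eBayes) on these log2 CPM. The 12306 genes averaging above 0 entered the fit, and Benjamini-Hochberg adjusted p-values under 0.05 were called. Cluster effects came from a fit of each cluster size alone, with clusters matched between the groups by size. The planned model with cluster and its product with treatment was also fitted, but its p-values are not reported, because the clusters were found from the same values. Promoters were RefSeq (GRCm38.p6), and exon overlaps came from GENCODE on GRCm38. Python 3.11.15 with pandas 2.3.3, scipy 1.17.1 and matplotlib 3.10.9 was used.

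The genes and lists were chosen with earlier results of these data known. Every synthetase and scaffold gene was named, and of other lists the called genes, at most 8 by size of change. The alternatives left out each library in turn, or used a block for the replicate number, a cluster term, each cluster alone, other scalings, filters and pseudocounts, limma voom on the recovered reads and an exact Mann-Whitney test. The study-table block, cluster means and a restriction to libraries sharing a prior were chosen after seeing the data. Libraries sharing a prior, with the same value for 0 reads, were controls 4 and 5 and all stiripentol libraries. In the marker and promoter searches, 1 further gene and 1 further sequence match are not reported here.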

Additional observations from a re-analysis of the deposited data

How the results depend on the processing

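The count of 14 higher and 0 lower cytosolic genes ranged from 10 to 15 higher, with 0 lower, when each library was left out in turn. Over all genes tested, 1218 to 1706 were higher in these fits. Aars, Lars, Rars, Iars and Yars were the calls lost. The count of higher genes was 14 with a cluster term, the other scalings, the other filters on mean level, the pseudocounts and voom. These settings called 1553 to 2908 of the genes each tested higher. It was 13 higher and 1 lower in 3 against 3 libraries and 16 higher in 2 against 2 libraries. With no filter it was 10, where 1705 of all 26335 genes were higher. The replicate numbers of the sample records did not pair the libraries (deviations of same-numbered libraries correlated at -0.24 to 0.06). With them as a replicate block, 10 cytosolic genes were higher, 9 of them among the 14, and of the mitochondrial genes 0 were higher and 2 were lower. Of all 12306 genes tested, 1020 were higher and 1062 lower in that fit. Under alternatives chosen after seeing the data, the block in the study table's numbering (correlations of 0.08 to 0.22) gave 12 higher cytosolic genes, with the calls of Iars and Yars lost, and 3 higher mitochondrial genes, and stiripentol libraries against the 2 controls that share their prior gave 15 and 1 (Tars2 in place of Fars2). Over all genes tested, these fits called 2050 and 1249 higher, in that order. With 1 mean per group and cluster, 0 cytosolic and 0 mitochondrial genes were called in either direction (limma, 2 means against 2). In that fit all 14 changes were above 0, 9 of them with an unadjusted p under 0.05, but the 14 were picked from these same libraries. Of all 12306 genes tested, 0 were called and 1116 had an unadjusted p under 0.05. The calls from 10 libraries thus treat libraries of the same cluster as independent.

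The mitochondrial counts of 1 higher and 3 lower became 1 to 2 and 2 to 3 when each library was left out, 2 higher without control 5. Over all genes tested, 1218 to 1706 were higher and 1171 to 1802 lower in these fits. They were 3 and 6 with a cluster term, 4 and 6 in 3 against 3, and 4 and 9 in 2 against 2 libraries. By the exact Mann-Whitney test 5 were lower, the same 5 genes that stood below all control libraries, where 1759 of all genes tested were. Quantile normalization, median centring, TMM scaling and voom each gave 2 higher, beside 1762 to 2094 of all genes tested. These scalings moved the median change of all genes from -0.06 to 0.05, 0.03 and 0.02.

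Signs turned only among genes that were not called in the fit of all libraries. Leaving out a library moved Rars2 from -0.21 to 0.27 (0.019, 0.090 and 0.25 in between), Sars2 from -0.095 to 0.0095, Lars2 from -0.29 to 0.022, Vars from -0.010 to 0.34 (-0.0042 without control 5) and Qars from -0.0054 to 0.20. In 3 against 3 libraries Vars was -0.38, Ears2 0.036, Lars2 0.078 and Rars2 0.53, and in 2 against 2 libraries Dars was -0.021, Hars 0.010, Sars2 0.21 and Yars2 0.49. Quantile normalization gave 0.21 for Rars2, 0.17 for Sars2 and 0.022 for Yars2. Median centring gave 0.069 for Rars2 and 0.035 for Sars2, TMM scaling 0.067 and 0.033, and a pseudocount of 1 CPM 0.0039 for Rars2. Against the controls sharing a prior, Hars was 0.26, Qars -0.22, Ears2 0.0016, Rars2 0.27, Sars2 0.089 and Yars2 0.25. The cause of these turns was not tested.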
